A study of Mus musculus with 2 samples.

Results

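Fibroblast growth factor (Fgf) signalling was examined in whole lungs of mouse embryos at embryonic day 18, shortly before birth, through 10 genes chosen by symbol: the ligands Fgf10, Fgf7 and Fgf18, the receptors Fgfr1, Fgfr2, Fgfr3 and Fgfr4, and the target genes Etv4, Etv5 and Spry2. These are 10 of the 18193 genes that the platform annotation names, and every probe set with 1 of these symbols was kept, 24 in all. The lungs were homozygous for the Nmyc9a allele, a hypomorphic allele of Mycn (N-Myc), or wildtype. Each group was 1 Affymetrix array of total RNA from pooled lungs, while no source used here gives the strain, the number of lungs in a pool or the way the allele lowers Mycn function. A single array per group allows no test and no p-value, and pooling hides how far animals differ.

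In the developing lung the mesenchyme makes Fgf10 and Fgf7, which act on the adjacent epithelium through a splice form of Fgfr2, a receptor tyrosine kinase. Binding needs heparan sulphate and starts the Ras-Erk cascade through adaptor proteins. The cascade raises transcription of the Ets factors Etv4 and Etv5 and of inhibitors such as Spry2, which damp the same cascade, so these transcripts are used as readouts of the pathway. Mycn is a transcription factor of distal lung epithelium that supports its growth, and the comparison asks how the Fgf pathway stood in lungs with less Mycn function.

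Of the 10 genes, 9 were measured, and none was 1.5-fold higher or lower on the array labelled Nmyc9a by its brightest probe set. A gene was called measured where the mean signal of both arrays was at or above a floor of 49.3, and a ratio here is Nmyc9a over wildtype. The 9 log2 ratios lay between -0.35 for Spry2 and 0.28 for Fgf18, 5 above 0 and 4 below, with a median of 0.05. Over all 12600 measured genes the median was -0.09, and 41.2% stood above 0. Of these 12600 genes, 6.32% lay 1.5-fold or more above 0 and 9.71% as far below it. None of the 9 was 2-fold apart, against 1.29% of all measured genes higher and 1.38% lower. The middle 95% of all measured genes ran from -0.88 to 0.83, and its inner part, from the 25th to the 75th percentile, from -0.35 to 0.19.

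The files offer 1 measure of error, how far the log2 ratios of several probe sets for a gene differ, which gave an SD of 0.40 (1.32-fold) pooled over 5671 genes. It covers the behaviour of probes and not differences between animals or arrays. All 9 member ratios were smaller than that SD, as were those of 67.0% of all measured genes. Of the 24 member probe sets 20 were measured, and 17 of the 20 had a ratio smaller than the SD. By these ratios none was 1.5-fold higher and 1, for Fgf7, was 1.5-fold lower, against 9.31% and 9.24% of the 22457 measured probe sets with 1 gene. For 1 dim Fgfr1 probe set the ratio is a lower bound, so that it may lie beyond 1.5-fold.

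Mycn itself did not read lower on the array labelled Nmyc9a, so its signal does not bear out the label. Its measured probe sets read 84.8 and 85.4 on that array, against 66.3 and 51.1 on the wildtype array. The position of these probes in relation to the allele is unknown here, and each direction below rests on the label. Lung epithelial genes were read on both arrays: all 19 annotated genes of a distal epithelium list were measured, among them the surfactant gene Sftpc at 8964 on the array labelled Nmyc9a and 8639 on the wildtype array.

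**Figure D1:**
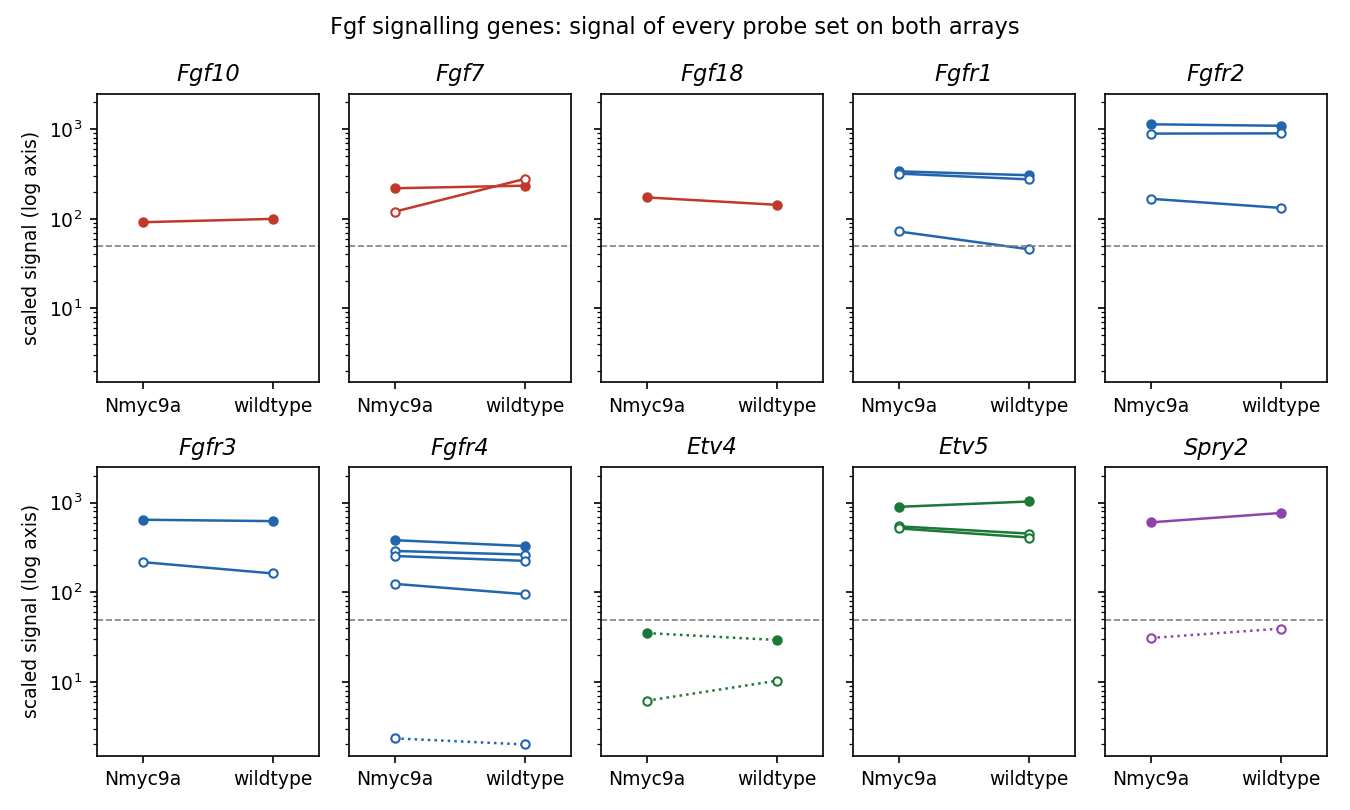
Scaled signal (log axis) of every probe set of the 10 genes on the array labelled Nmyc9a (left of each panel) and the wildtype array (right), with a line joining the 2 signals of a probe set. Filled points mark a gene's brightest probe set, open points its others, dotted lines probe sets that were not measured, and the dashed line the floor of 49.3; red marks ligands, blue receptors, green Ets targets and purple Spry2. Most lines are close to level, the second Fgf7 probe set is the steepest, and both Etv4 probe sets lie below the floor.

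The promoter sequences are shown for the members whose window held a searched motif, since the study turns on a transcription factor and the readouts turn on Ets factors. RefSeq promoter windows of GRCm38.p6 (250 bases before to 50 after the transcription start) matched 8 of the 10 members, with 10 windows in all. The motifs searched on both strands were CCGGAA, the core that Ets factors bind (TTCCGG on the other strand), and CACGTG, the E-box that Myc proteins bind with Max, which reads the same on both strands; the motifs do not overlap each other in these windows. CCGGAA was in 2 of the 10 windows, those of Spry2 and Fgfr4, and in 15% of 32544 promoter windows of the same length. The E-box was in 1, that of Fgfr2, and in 7.17% of the windows. The lines give the windows 5′ to 3′ on the gene's strand with the motif in capitals. They lie at chr14:105896770-105897069 (minus strand) for Spry2, chr13:55152568-55152867 (plus strand) for Fgfr4 and chr7:130266759-130267058 (minus strand) for Fgfr2.
Spry2: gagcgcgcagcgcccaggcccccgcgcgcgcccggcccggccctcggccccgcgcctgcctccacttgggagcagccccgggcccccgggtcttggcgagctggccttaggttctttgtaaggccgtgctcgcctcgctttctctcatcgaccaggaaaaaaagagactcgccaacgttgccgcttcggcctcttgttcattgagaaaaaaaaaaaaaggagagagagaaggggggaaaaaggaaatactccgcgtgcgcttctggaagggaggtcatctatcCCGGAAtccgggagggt
Fgfr4: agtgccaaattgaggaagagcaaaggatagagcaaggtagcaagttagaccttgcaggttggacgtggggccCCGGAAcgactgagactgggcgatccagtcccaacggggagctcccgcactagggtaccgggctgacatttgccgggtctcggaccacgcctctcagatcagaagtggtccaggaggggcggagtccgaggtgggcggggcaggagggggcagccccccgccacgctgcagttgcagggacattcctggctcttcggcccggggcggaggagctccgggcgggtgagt
Fgfr2: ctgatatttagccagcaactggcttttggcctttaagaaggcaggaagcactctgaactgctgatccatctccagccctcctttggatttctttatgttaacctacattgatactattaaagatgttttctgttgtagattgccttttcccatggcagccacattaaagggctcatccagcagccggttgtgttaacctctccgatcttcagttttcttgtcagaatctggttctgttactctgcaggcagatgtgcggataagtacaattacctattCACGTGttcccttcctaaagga
Counted from 1 at the transcription start, the motif begins at base 34 in Spry2 and at base 29 in Fgfr2, and at base -178 in Fgfr4. A match is a description of letters, not a bound site.

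Among the ligands, Fgf10 and Fgf18 each had 1 probe set. Fgf10, the mesenchymal signal that bud outgrowth requires (chromosome 13, 118714699 to 118792573 in GRCm38.p6), read 91.5 on the array labelled Nmyc9a and 99.7 on the wildtype array. The log2 ratio was -0.12, and 46.5% of measured genes had a lower one. Fgf18, a mesenchymal ligand of late lung and of cartilage (chromosome 11, 33116970 to 33147400), read 173 on the array labelled Nmyc9a and 143 on the wildtype array, a log2 ratio of 0.28. It was the highest of the 9 measured members, and 81.5% of measured genes had a lower ratio.

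Fgf7, keratinocyte growth factor (chromosome 2, 126034658 to 126091185), held the widest disagreement among the members. Its brightest probe set read 219 on the array labelled Nmyc9a and 234 on the wildtype array, a log2 ratio of -0.10. Its other probe set read 120.0 on the array labelled Nmyc9a and 279 on the wildtype array, a log2 ratio of -1.22 or 2.32-fold lower. The first shows nearly equal signals and the second the lowest ratio of all 20 measured member probe sets, with 0.5% of all measured probe sets lower. It was the single member probe set past 2-fold, against 1.36% of measured probe sets that far down and 2.39% that far up.

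Both Fgf7 probe sets were above the floor on both arrays, and they differed by 1.12 on the log2 scale. Of the 3207 genes with exactly 2 measured probe sets, 5.08% differed by that much or more, and the median difference was 0.31. Which part of the Fgf7 transcript each probe set reads is not known here. The direction of Fgf7 was below 0 by both, and the size depends on the probe set: the median of the 2 was -0.66.

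The 4 receptors stood slightly above 0 on the array labelled Nmyc9a by their brightest probe sets, from 0.05 to 0.21, all by less than the SD between probe sets. Fgfr2 (chromosome 7, 130162451 to 130266808), the epithelial receptor for Fgf10 and Fgf7, read 1133 and 892 on the array labelled Nmyc9a in its 2 brightest probe sets, against 1090.4 and 898 on the wildtype array. The log2 ratios were 0.06 and -0.01, so these 2 probe sets were nearly level. Its dimmest probe set read 167 on the array labelled Nmyc9a and 132 on the wildtype array, a log2 ratio of 0.34. A splice form cannot be told from these values.

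Fgfr1 (chromosome 8, 25518759 to 25575718), a receptor mainly of mesenchymal cells, read 338 and 319 on the array labelled Nmyc9a in its 2 brightest probe sets, against 306 and 275 on the wildtype array. The log2 ratios were 0.14 and 0.22. Its remaining probe set read 72.1 on the array labelled Nmyc9a and 45.6, below the floor, on the wildtype array, so its log2 ratio is given as 0.55 or higher. All 3 probe sets were higher on the array labelled Nmyc9a, and the size grew as the signal neared the floor.

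Fgfr3 and Fgfr4 act together in forming alveoli after birth in mice. Fgfr3 (chromosome 5, 33721724 to 33737068) read 645 and 217 on the array labelled Nmyc9a, against 622 and 162 on the wildtype array, with log2 ratios of 0.05 and 0.42. Fgfr4 (chromosome 13, 55152818 to 55168759) read 381, 289, 254 and 124 on the array labelled Nmyc9a in its 4 measured probe sets, against 328, 263, 224 and 95.1 on the wildtype array. Its log2 ratios of 0.21, 0.14, 0.18 and 0.39 spread over 0.25, the narrowest spread among the members with several measured probe sets. The fifth Fgfr4 probe set read 2.34 on the array labelled Nmyc9a and 2 on the wildtype array, below the floor on both.

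Over the receptors, 11 of the 12 measured probe sets had a ratio above 0, with a median of 0.20, where 45.2% of all measured probe sets did. Among the 11 is the dim Fgfr1 probe set, which lay below the floor on the wildtype array. It counts as measured through the array labelled Nmyc9a alone. Probe sets of a gene share its RNA and are not replicates. Fgfr4 is also expressed in liver and skeletal muscle during development, and marker lists of both tissues were therefore read beside it. Of all measured genes, 6.32% passed 1.5-fold upward and 9.71% downward. On the liver list 6 of 10 measured genes passed 1.5-fold upward and 1 downward, with summed signals of 1599 on the array labelled Nmyc9a and 780.0 on the wildtype array and single ratios from -0.70 (Rbp4) to 2.0 (Alb). On the skeletal muscle list 2 of 6 measured genes passed 1.5-fold, both upward, with sums of 892 on the array labelled Nmyc9a and 478 on the wildtype array, and ratios from 0.14 (Myod1) to 2.15 or higher (Acta1). Among the genes called higher, Apoa1, Ttr, Fga and Fgg of liver and Acta1 of muscle lay below the floor on the wildtype array. They count as measured through the array labelled Nmyc9a alone, and their ratios are lower bounds. The liver genes Apob, Fgb, Ahsg and Amy1 were not measured, nor were 8 of the 14 muscle genes (Myh3, Myh8, Tnnt3, Tnni2, Myog, Pax7, Actn3 and Neb). Where the transcripts of these lists came from, and their part in the Fgfr4 signal, was not tested.

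**Figure D2:**
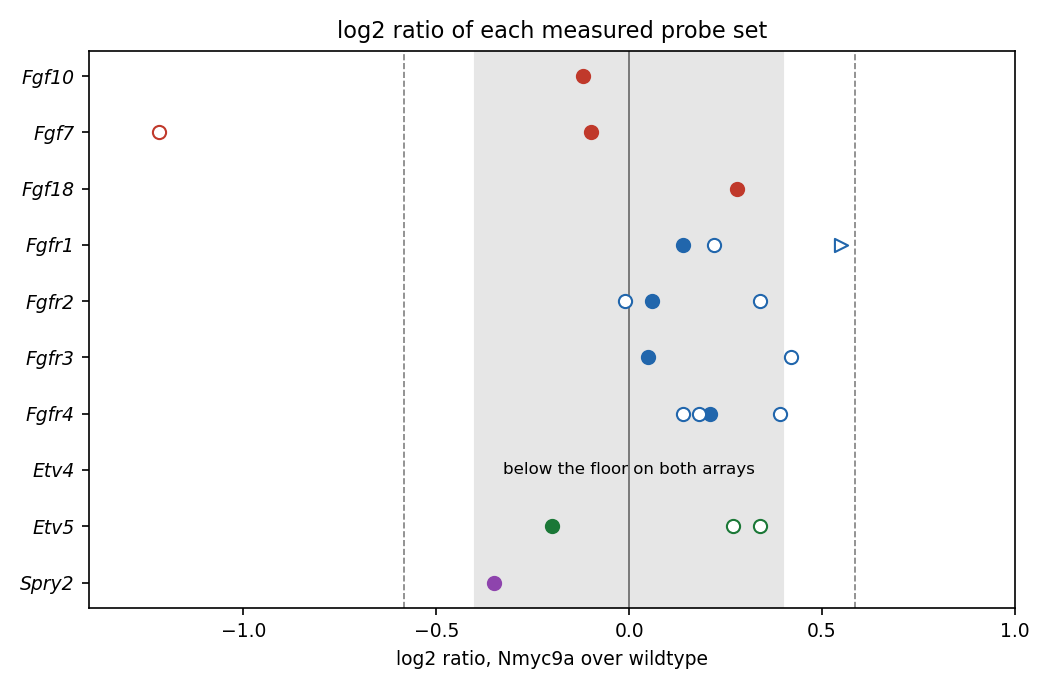
log2 ratio, Nmyc9a over wildtype, of each measured probe set of the 10 genes, with filled points for the brightest probe set of a gene, open points for its others and a triangle for a ratio that is a lower bound. The grey band is the SD of 0.40 between probe sets of the same gene and the dashed lines mark 1.5-fold; colours give ligands in red, receptors in blue, Ets targets in green and Spry2 in purple. A single Fgf7 probe set at -1.22 is drawn outside the dashed lines, the triangle is the Fgfr1 probe set at 0.55 or higher, and 11 of 12 receptor probe sets lie above 0.

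Of the transcriptional readouts, Etv5 and Spry2 stood below 0 by their brightest probe sets, while the other Etv5 probe sets stood above 0. Etv5 (chromosome 16, 22381313 to 22439570), an Ets factor of distal tips and of type 2 alveolar cells, had 3 measured probe sets that disagreed in sign. The brightest read 898 on the array labelled Nmyc9a and 1031 on the wildtype array, a log2 ratio of -0.20. The others read 544 and 516 on the array labelled Nmyc9a, against 451 and 408 on the wildtype array, with log2 ratios of 0.27 and 0.34. All 3 ratios were smaller than 0.40, and Etv5 therefore has no settled direction. After quantile normalization or loess its brightest probe set stood just above 0, at 0.02 in each.

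Etv4 (chromosome 11, 101769747 to 101785310), the paralog that acts with Etv5 downstream of Fgf10 in early branching, was not measured at this age. Its probe sets read 35 and 6.16 on the array labelled Nmyc9a, against 29.3 and 10.3 on the wildtype array, below the floor throughout. No ratio is given, and signal below the floor does not show that the transcript is absent.

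Spry2 (chromosome 14, 105891947 to 105896819), an intracellular inhibitor of receptor tyrosine kinase signalling, had the lowest ratio of the 9 measured members. Its brightest probe set read 603 on the array labelled Nmyc9a and 768 on the wildtype array, a log2 ratio of -0.35 or 1.27-fold lower, and 24.8% of measured genes had a lower ratio. Its second probe set read 30.9 on the array labelled Nmyc9a and 39.3 on the wildtype array, both below the floor. The 1 measured ratio, 0.87 times the SD between probe sets, has no second probe set to check it.

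Among the 6 members with at least 2 measured probe sets, all probe sets had the same sign for 4 (Fgf7, Fgfr1, Fgfr3 and Fgfr4), against 50.3% of all genes with at least 2. Signal level matters for reading these ratios. Genes with a mean signal of 200 or above, 7 of the 9 members among them, had a median log2 ratio of -0.16, and genes from the floor to 2 times the floor had 0.07. Set against -0.16, the brightest probe sets of the 4 receptors lie further up and those of Etv5 and Spry2 less far down than they do against 0. The brightest probe set of Fgf7, at -0.10, lies below 0 but above -0.16.

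**Figure D3:**
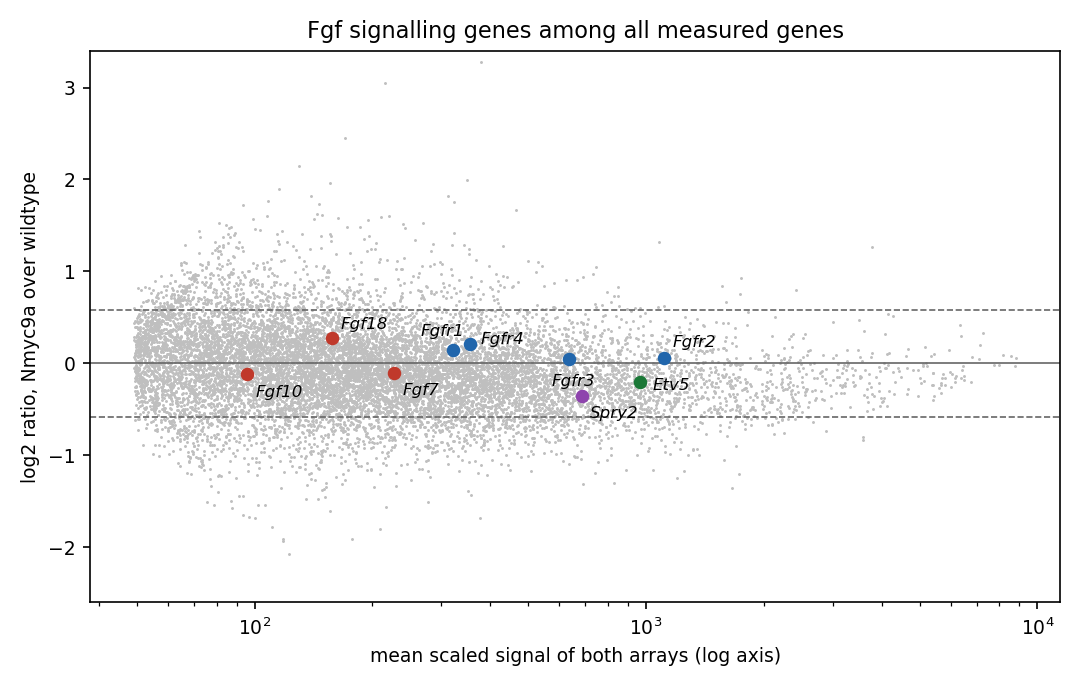
log2 ratio, Nmyc9a over wildtype, against the mean scaled signal of both arrays (log axis) for all 12600 measured genes in grey, each by its brightest probe set, with the 9 measured Fgf signalling genes labelled and coloured by role (ligands red, receptors blue, Etv5 green, Spry2 purple). Dashed lines mark 1.5-fold, and all 9 genes lie between them, from -0.35 for Spry2 to 0.28 for Fgf18.

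The rest of the pathway was read, together with distal lung genes, from a list of 124 other genes in 8 roles, of which 95 were measured. A further 20 were below the floor and 9 had no probe set with a single symbol here and were not analysed. The distal lung role holds 14 genes, 13 of them measured, that need not be parts of the pathway. They are included in the counts below and wherever other pathway genes are counted. Past 1.5-fold were 2 upward and 6 downward, beside 6.32% and 9.71% of all measured genes. Their median was -0.09, as it was over all measured genes. Above 0 stood 31 and below it 64, where 41.2% of all measured genes stood above 0. The counts above and below 0 within each role are to be read beside that share. Several measured probe sets were present for 62 of these genes, and for 28 of the 62 every such ratio had the same sign, so a ratio below, which is that of the brightest probe set unless stated, often differs from those of the gene's other probe sets.

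Only 4 of 15 other secreted ligands were measured, and 1 passed 1.5-fold. Fgf4, known from early embryos and limb buds, read 98.5 on the array labelled Nmyc9a and 55.4, close to the floor, on the wildtype array (1.78-fold higher). That probe set alone carries the call, since the other 3 for Fgf4 read 8.01 or less on both arrays. Fgf1 stood at 0.18 by its brightest probe set, and its other probe sets at -0.04 and 1.63, the last of these at 241 on the array labelled Nmyc9a and 77.6 on the wildtype array. Fgf9, a ligand of mesothelium and epithelium that acts on the mesenchyme, read 97.6 and 76.5 on the array labelled Nmyc9a, against 75 and 93.5 on the wildtype array, so its probe sets disagreed in sign at 0.38 and -0.29. Mesothelium genes were lower on the same array, 5 of 9 measured by at least 1.5-fold and none higher, with ratios from -1.27 (Aldh1a2) to 0.34 or higher (Muc16) and summed signals of 2413 on the array labelled Nmyc9a and 4366 on the wildtype array. Over all measured genes, 9.71% were at least 1.5-fold lower and 6.32% higher. Wt1 and Calb2 were not measured, and the part of the mesothelium in the Fgf9 signal was not tested. Fgf22 had probe sets of opposite sign: the one used for the list stood at -0.14 or lower, and the other, at 81.1 on the array labelled Nmyc9a and 18.4 on the wildtype array, at 0.72 or higher. Fgf2 and Fgf8 were among the 11 ligands not measured.

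Fgf12 and Fgf14, intracellular relatives that do not signal through Fgf receptors, stood at 0.53 and at 0.55 or higher, both from signals near the floor. Among 14 measured co-receptors and ligand-binding partners, 2 passed 1.5-fold downward and none upward, and the median was -0.10. Fgfbp1, a carrier protein that releases Fgf ligands from the matrix, read 231 on the array labelled Nmyc9a and 401 on the wildtype array (1.73-fold lower). Flrt2, a membrane protein that binds Fgf receptors, was 1.51-fold lower at -0.60, with its other probe sets reaching -0.08. At the other end stood Hspg2, the basement membrane proteoglycan perlecan, at 0.51, and Fgfbp3 at 0.19 or higher.

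Of 14 measured genes of heparan sulphate synthesis and editing, 1 was higher, 1 was lower and 11 stood below 0, with a median of -0.27. Sulf1, which removes sulphate groups from heparan sulphate outside the cell, read 107 on the array labelled Nmyc9a and 163 on the wildtype array (1.53-fold lower). The sulphotransferase gene Hs6st2 stood at -0.56 and Ndst2 at 0.48, while Hs3st1 was 1.57-fold higher, at 83.2 on the array labelled Nmyc9a and 53.1 on the wildtype array. Sulf2, the paralog of Sulf1, had probe sets that disagreed. Its brightest by mean signal stood at 0.32, while the others read 261 and 151 on the array labelled Nmyc9a, against 523 and 348 on the wildtype array, 2.01-fold and 2.31-fold lower. The probe sets of Hs2st1, a sulphotransferase gene, ranged from -0.41 for the brightest to 1.17.

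The adaptors and the Ras-Erk cascade had 17 measured genes, 1 of them 1.5-fold lower, none higher, and a median of -0.08. Crk, an adaptor protein, read 779.6 on the array labelled Nmyc9a and 1244 on the wildtype array (1.60-fold lower) by its brightest probe set, while its probe sets ranged from -0.67 to 0.38. Ptpn11, the phosphatase Shp2 that carries the receptor signal to Ras, stood at -0.47, Frs3 at 0.19 and Braf at 0.20.

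No feedback inhibitor passed 1.5-fold by its brightest probe set among 15 measured, and their median was -0.14, with 10 below 0. Dimmer probe sets passed it for Spred1 (-0.65, and 1.24 or higher), Spred2 (1.26), Cbl (0.94), Nf1 (0.94 or higher) and Spry4 (-0.64). Dusp6, the Erk phosphatase that Fgf signalling induces, read 823 on the array labelled Nmyc9a and 1112 on the wildtype array, a log2 ratio of -0.43. Dusp14 stood at -0.41, Cbl at 0.29 and Lrig1, which limits receptor tyrosine kinases, at 0.56, with its other measured probe sets at 0.12 and 0.19. The Sprouty paralogs are named here after their values were seen. Spry4 read 269.8 on the array labelled Nmyc9a and 342 on the wildtype array, a log2 ratio of -0.34, close to that of Spry2. Spry1 stood at -0.09, the median of all measured genes, and Spry3 was not measured. All 4 measured Spry4 probe sets were below 0, from -0.64 to -0.01.

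Other Ets and Erk-responsive genes numbered 16 measured, 1 of them 1.5-fold lower and none higher, 14 below 0, and the median was -0.07. Several of the 14 were close to level, with Ets2 and Elk1 at -0.00 and Srf at -0.01. Ier3, an immediate early gene induced by Erk, read 635 on the array labelled Nmyc9a and 1036 on the wildtype array (1.63-fold lower). Ccnd1, cyclin D1, stood at -0.37, with Ets1 at 0.10, where its probe sets reached -0.25. The Etv3 probe sets passed 1.5-fold in both directions, at 0.06 for the brightest and at -0.63, 0.56 and 1.03 for the others. Among 13 measured genes of the distal lung listed beside Fgf10 and Fgfr2, Foxp2, an epithelial repressor, was 2.02-fold lower by its brightest probe set. That probe set read 331 on the array labelled Nmyc9a and 667 on the wildtype array. Of the 5 measured Foxp2 probe sets, the others stood at -0.81, -0.65, -0.49 and -0.01. Anxa4 stood at -0.40 and Elf5 at 0.12, each with probe sets of both signs, Lgr5 stood at 0.24, and the list's median was -0.11, with no gene besides Foxp2 past 1.5-fold.

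**Figure D4:**
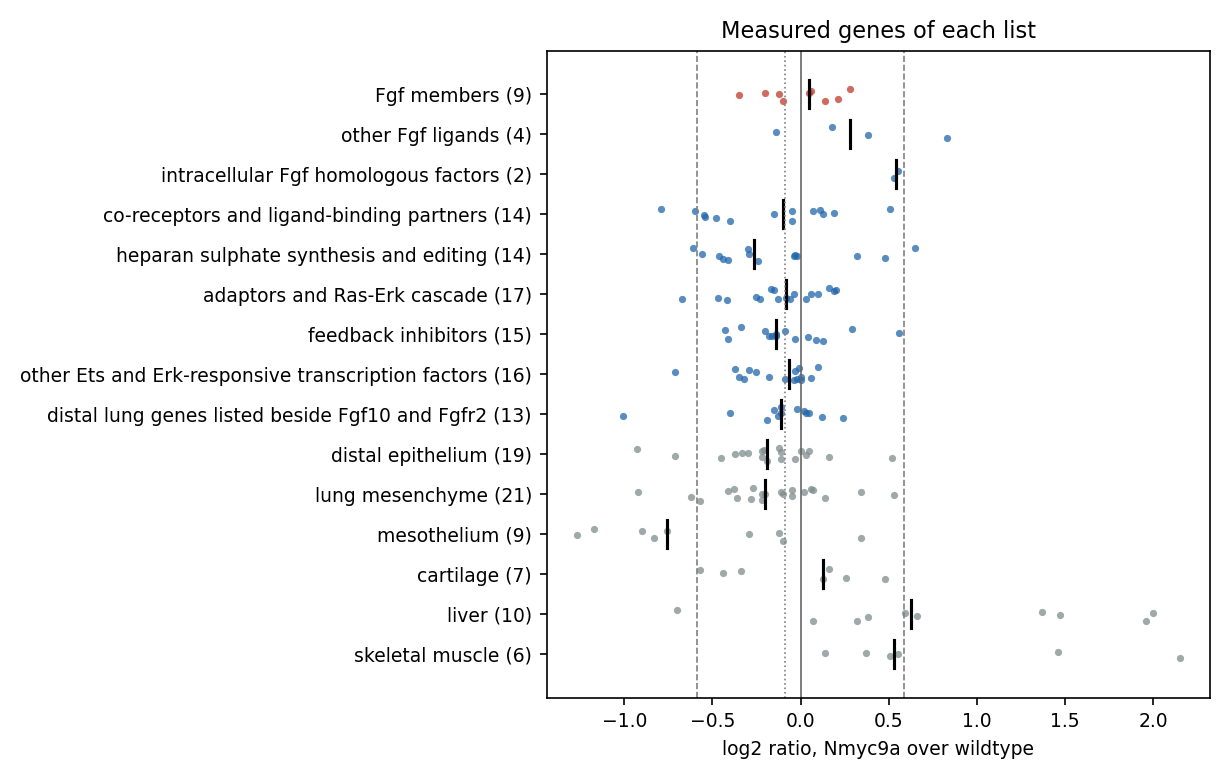
log2 ratio, Nmyc9a over wildtype, of the measured genes of each list, the 9 Fgf signalling genes in red, 8 roles of other pathway genes in blue and 6 cell type marker lists in grey, with the number measured in brackets. Black bars are medians, the dotted line is the median of all measured genes (-0.09) and dashed lines mark 1.5-fold; pathway points cluster around the dotted line, while mesothelium genes reach -1.27 and liver and skeletal muscle genes reach 2.0 and 2.15.

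Mesenchyme sends Fgf10 and Fgf7 to the distal epithelium, and the lists of these compartments were read last. Of 21 measured genes of lung mesenchyme, the source of Fgf10 and Fgf7, 2 passed 1.5-fold downward and none upward; the median was -0.20, from -0.92 for Wnt2 to 0.53 for Gli1, and summed signals of 36910.5 on the array labelled Nmyc9a and 39527 on the wildtype array. Of 19 measured genes of distal epithelium, 2 passed it downward and none upward; the median was -0.19, from -0.93 for Krt8 to 0.52 for Epcam (its other probe set at -0.56), and sums of 37034 on the array labelled Nmyc9a and 40403 on the wildtype array. Cartilage, where Fgf18 and Fgfr3 also act, had none of 7 genes past 1.5-fold, ratios from -0.57 (Matn3) to 0.48 (Acan), and sums of 635 on the array labelled Nmyc9a and 631 on the wildtype array. In whole-lung RNA, fewer cells of a type and less RNA per cell cannot be told apart.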

How the data were processed

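Total RNA of pooled lungs was extracted with Trizol and an RNeasy kit and biotin-labelled by the Affymetrix protocol, per the labels. Per the deposited table, each of 45101 probe sets has a signal intensity on a linear scale; no source used here states how it was scaled. The deposited signals had medians of 77.7 on the array labelled Nmyc9a and 66 on the wildtype array. After 64 control probe sets were removed, the Nmyc9a signals were scaled by 0.977, which set the median log2 ratio over probe sets with a mean signal at or above the floor to 0. The floor, 49.3, is the 40th percentile after scaling, and lower values were raised to it before ratios were taken, so that such a ratio is a bound. Printed signals are scaled and precede the floor.

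Of 34945 probe sets with 1 symbol, 34741 were matched through Entrez identifiers to RefSeq GRCm38.p6 genes and took the symbols given there. Each gene took its brightest probe set by mean signal, and genes were counted by size at 1.5-fold. The members and lists were chosen with earlier results of these data known. Named pathway genes were those past 1.5-fold and the 2 highest and 2 lowest of each role, and marker lists gave their extremes and some genes below the floor. Outside that rule, Sulf2, Hs2st1, Map2k2, Ksr1, Plcg1, Spred1, Spred2, Nf1, Ets2, Elk1, Srf and the Sprouty paralogs were named after their values were seen. Nothing could be tested with 2 arrays, whose number limits the precision. Python 3.11.15, pandas 2.3.3 and statsmodels 0.14.6 (loess) were used, and the scripts were tested on simulated data.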

Additional observations from a re-analysis of the deposited data

How the results depend on the processing

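Alternatives were the values as deposited, quantile normalization, loess on mean signal (span 0.3), the floor moved to the 20th or to the 60th percentile or removed, a pseudocount used instead, the median over probe sets of each gene, and leaving out probe sets named _x_at, _s_at or _a_at. No paired analysis was possible because each group has 1 array. No member was called 1.5-fold higher under any of these or at 2-fold, although without _x_at, _s_at and _a_at probe sets the Fgfr1 ratio is a lower bound, 0.55, set by the floor. With the median of probe sets 1 member, Fgf7, was 1.5-fold lower (-0.66). Of 80 member ratios under the alternatives, 77 moved by less than the SD between probe sets. The others were Fgf7, Etv5 at 0.27 with the median of probe sets, and that Fgfr1 ratio. The 4 receptors and Fgf18 stayed above 0 and Fgf10, Fgf7 and Spry2 below 0 wherever measured. Fgf10 was not measured with the floor at the 60th percentile. Etv4 was measured with the floor at the 20th percentile, at 0.26. Etv5 was above 0 in 3 of 9. Other pathway genes at least 1.5-fold higher numbered 10 with the floor at the 20th percentile, 0 at the 60th, 1 with the pseudocount and 0 at 2-fold, against 2, and those lower numbered 1 at 2-fold, against 6. Of all genes past 1.5-fold 39.4% were higher (45.8% as deposited, 31.8% after quantile normalization, 28.7% with the floor at the 60th percentile). Signals near the floor limit Fgf10, the dim probe sets and several other ligands.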
